A study of Rattus norvegicus with 12 samples.

Results

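Adipose tissue was represented by 8 genes, Adipoq, Lep, Retn, Cfd, Plin1 and Cidec of fat in general and Ucp1 and Cidea of brown fat, out of 21239 genes with counts among the 37246 listed. They were found by their symbols in the gene table, and they were chosen by their measured levels, since ARB replicate 2 and ARNI replicate 3 had been seen to hold more of them than the rest. What is said of those libraries against the rest is therefore a description, and no test of it is given.

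RNA-seq was made of the left atrium of 12 male rats, 3 in each of 4 groups. The WKY group (normotensive Wistar-Kyoto rats) and the SHR group (spontaneously hypertensive rats) were given saline at 7.5 ml/kg/day. The ARB and ARNI groups were SHRs given valsartan, a blocker of the angiotensin receptor, at 30 mg/kg/day, or sacubitril/valsartan, which adds a neprilysin inhibitor, at 60 mg/kg/day. Treatment lasted 4 weeks and began after purchase at an age of 14 weeks. The titles of 6 libraries give SHR words to libraries named WKY and Wistar-Kyoto words to libraries named SHR, and the strain field gives Wistar-Kyoto for all 12, so the groups follow the library names.

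White adipocytes store triglyceride in a large droplet and release hormones such as leptin and adiponectin. Brown adipocytes hold many small droplets and burn fat for heat through the uncoupling protein UCP1, under control of noradrenaline from sympathetic nerves. Fat of both kinds lies around the heart and the great vessels.

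Promoter sequences of the 3 hormone genes and of Ucp1 are printed because these genes moved together across libraries while their proportions differed between the libraries rich in them. They are RefSeq sequences of the GRCr8 build, whereas the submitters' processing notes name Rnor_6.0, and each runs from 250 bases before the transcription start to 50 bases after the start. Adipoq lies at chr11:91240120-91240419 on the minus strand, Lep at chr4:58626288-58626587 on the plus strand, Retn at chr12:6508524-6508823 on the plus strand and Ucp1 at chr19:41721372-41721671 on the minus strand. Capitals mark matches, on either strand, to AGGTCA (the half-site of nuclear receptors), TTGCGCAA (a C/EBP palindrome), TATAAA (the TATA box) and CCAAT (read ATTGG on the other strand).
Adipoq: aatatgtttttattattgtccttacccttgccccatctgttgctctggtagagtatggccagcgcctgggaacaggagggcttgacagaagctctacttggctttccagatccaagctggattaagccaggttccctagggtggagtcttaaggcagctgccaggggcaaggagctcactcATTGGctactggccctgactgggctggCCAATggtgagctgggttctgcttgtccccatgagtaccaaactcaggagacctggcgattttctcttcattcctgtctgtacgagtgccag
Lep: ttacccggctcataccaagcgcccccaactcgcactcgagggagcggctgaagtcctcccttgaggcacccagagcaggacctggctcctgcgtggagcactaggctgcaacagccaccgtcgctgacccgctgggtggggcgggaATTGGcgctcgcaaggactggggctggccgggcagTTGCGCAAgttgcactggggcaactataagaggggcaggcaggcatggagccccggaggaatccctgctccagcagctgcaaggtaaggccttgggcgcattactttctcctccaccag
Retn: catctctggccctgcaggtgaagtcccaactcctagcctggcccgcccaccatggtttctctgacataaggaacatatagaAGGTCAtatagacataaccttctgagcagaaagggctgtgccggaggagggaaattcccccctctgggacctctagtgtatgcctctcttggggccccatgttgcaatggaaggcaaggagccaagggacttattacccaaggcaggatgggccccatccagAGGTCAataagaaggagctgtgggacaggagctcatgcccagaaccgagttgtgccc
Ucp1: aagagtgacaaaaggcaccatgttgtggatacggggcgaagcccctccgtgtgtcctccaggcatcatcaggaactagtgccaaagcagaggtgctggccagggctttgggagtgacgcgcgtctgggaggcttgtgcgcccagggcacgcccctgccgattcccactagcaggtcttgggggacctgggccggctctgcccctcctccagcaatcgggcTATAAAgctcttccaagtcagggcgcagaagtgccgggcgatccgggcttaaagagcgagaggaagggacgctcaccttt
The Lep window held 1 C/EBP palindrome, starting 69 bases before the transcription start, a run of letters present in 0.17% of 33469 promoter windows. The Retn window held 2 nuclear receptor half-sites, a motif present in 16.2% of all windows, starting 169 and 7 bases before the start. The Ucp1 window held the TATA box 30 bases before the start, a motif present in 14.2% of windows. The Adipoq window held the CCAAT box on each strand and the Lep window held it on the opposite strand, a motif present in 37.5% of windows. These matches describe letters, and binding was not measured.

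Adipoq encodes adiponectin, a hormone that fat cells release in large amounts. Its level in CPM (reads per 1000000 reads of the library) was 0, 0 and 4.71 in WKY replicates 1, 2 and 3, and in the same order 0, 0.394 and 0 (SHR), 0.0661, 192 and 0.714 (ARB) and 0, 0.0786 and 61.7 (ARNI). ARB replicate 2 stood 40.8 times and ARNI replicate 3 stood 13.1 times above WKY replicate 3, the highest of the other 10 libraries. A count of 0 allowed up to 3 reads, which was 0.190 to 0.261 CPM in the 9 libraries with no read of some of these genes. In bulk samples, fewer cells of a type and less RNA per cell cannot be told apart.

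Lep encodes leptin, the satiety hormone made by white fat. It was at 0.171, 0.0870 and 0.711 CPM (WKY), 0, 0.158 and 0.136 CPM (SHR), 0, 16.0 and 0.317 CPM (ARB) and 0, 0.157 and 2.58 CPM (ARNI). Retn, the gene of resistin, was at 0, 0 and 0.444 CPM (WKY), 0.0669, 0 and 0 CPM (SHR), 0, 20.4 and 0 CPM (ARB) and 0, 0 and 5.36 CPM (ARNI). Both hormones were thus highest in ARB replicate 2, next in ARNI replicate 3 and then in WKY replicate 3, and 8 of the other 10 libraries had no Retn read.

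Cfd encodes adipsin, a complement factor secreted by fat cells but also by other cells. It had reads in every library, at 5.37, 5.83 and 9.42 CPM (WKY), 7.89, 4.65 and 20.4 CPM (SHR), 8.27, 67.6 and 20.8 CPM (ARB) and 2.59, 5.35 and 22.5 CPM (ARNI). ARB replicate 2 was apart, at 3.26 times the highest of the other 10, while ARNI replicate 3 was at 1.08 times ARB replicate 3. The Cfd level therefore separated these libraries from the rest less than that of Adipoq did.

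Plin1 encodes perilipin 1, the coat protein of the fat cell's droplet. It was at 0, 0 and 7.29 CPM (WKY), 0.0669, 0.552 and 0 CPM (SHR), 0, 68.9 and 0.0793 CPM (ARB) and 0.126, 0 and 99.5 CPM (ARNI). Cidec, which fuses droplets into larger ones, was at 0, 0 and 1.42 CPM (WKY), 0, 0.552 and 0 CPM (SHR), 0.0661, 68.9 and 0.159 CPM (ARB) and 0, 0 and 45.1 CPM (ARNI). Unlike the hormones, Plin1 was higher in ARNI replicate 3 than in ARB replicate 2.

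Ucp1 was listed with no read in 8 of the other 10 libraries. Its level was 0, 0 and 1.19 CPM (WKY), 0, 0 and 0 CPM (SHR), 0.198, 15.6 and 0 CPM (ARB) and 0, 0 and 182 CPM (ARNI). ARNI replicate 3 was 153 times and ARB replicate 2 was 13.1 times above WKY replicate 3. The brown fat gene was thus most abundant in the library that came second for the hormones.

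Cidea, a droplet protein known from brown fat, did not follow the other genes. It was at 77.0, 80.1 and 80.4 CPM (WKY), 120, 90.2 and 56.8 CPM (SHR), 119, 100 and 87.2 CPM (ARB) and 86.9, 60.0 and 150 CPM (ARNI). ARB replicate 2 lay within the range of the other 10 libraries, and ARNI replicate 3 was 1.25 times their highest value. Cidea was therefore present in libraries with no read of Adipoq, Plin1 or Ucp1, and its level did not mark the libraries with reads of the other fat genes.

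**Figure D1:**
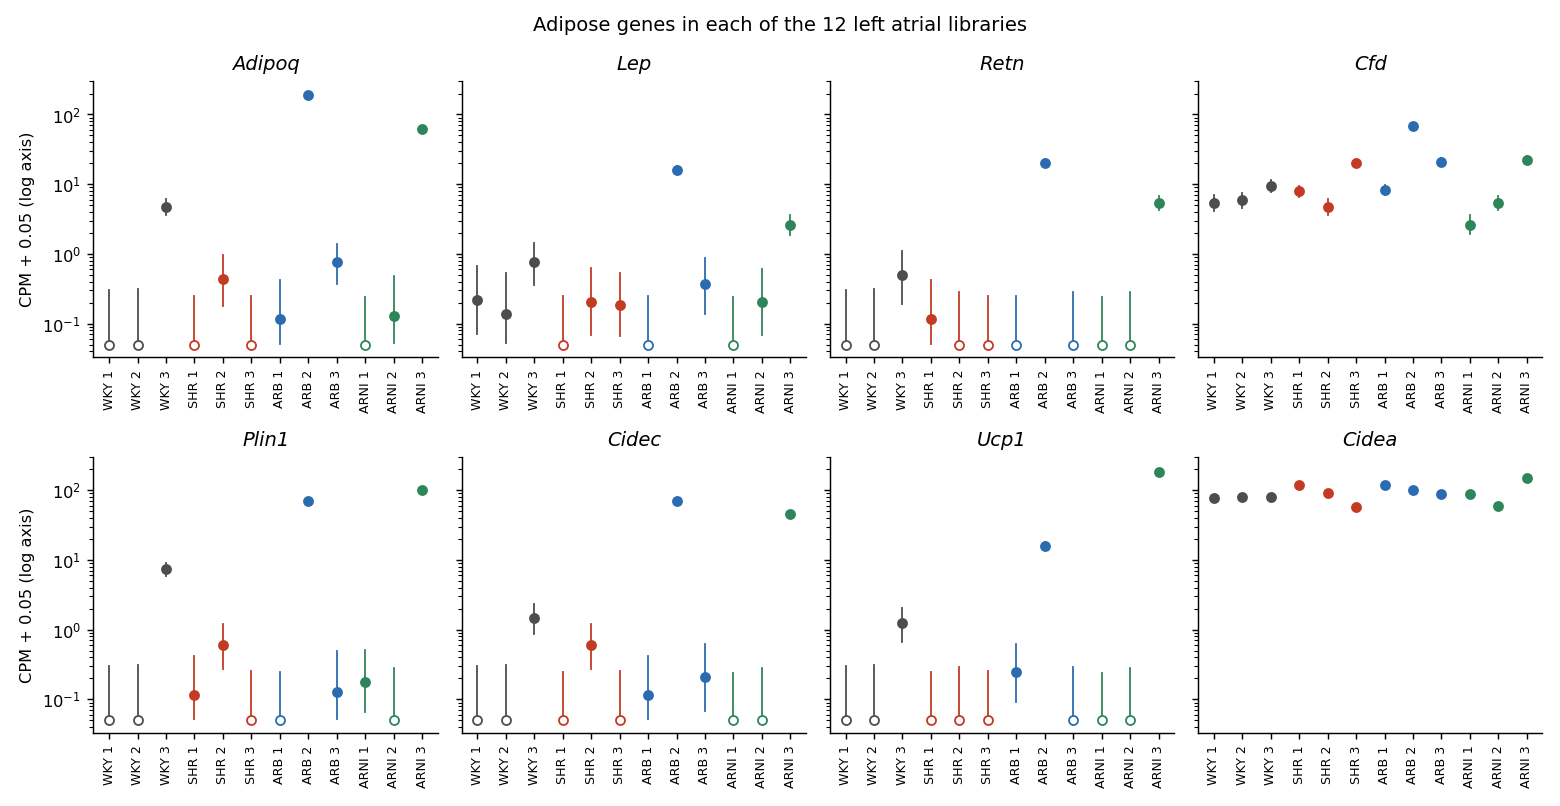
Each panel plots 1 gene, with the 12 libraries along the horizontal axis and CPM + 0.05 on a log vertical axis, colored by group. Vertical lines are exact 95% binomial intervals of the count, and open circles are libraries with 0 reads, with lines up to 3 reads. ARB replicate 2 and ARNI replicate 3 stand above the rest in the panels other than those of Cfd and Cidea. For Cidea, ARB replicate 2 does not. For Cfd, the interval of ARNI replicate 3 overlaps that of ARB replicate 3.

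Summed over the 6 genes other than Ucp1 and Cidea, ARB replicate 2 held 434 CPM and ARNI replicate 3 held 237 CPM, while the other 10 libraries held 2.72 to 24.0 CPM. All 6 genes were higher in both libraries than in every other library, which was true of 3.84% of 19239 genes with reads (12.3% for ARB replicate 2 and 13.0% for ARNI replicate 3 taken singly). Since the genes were chosen on this pattern, nothing is read from that count. The genes nearest to the boundary were Cfd, at 1.08 times the next library in ARNI replicate 3, and Cidea in ARB replicate 2, at 0.837 times it.

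WKY replicate 3 held a smaller amount of the same genes. It had 53 reads of Adipoq, 82 of Plin1, 16 of Cidec, 13 of Ucp1, 8 of Lep and 5 of Retn, whereas the other WKY libraries had none of these but 2 and 1 reads of Lep. In SHR replicate 2 there were 5 reads of Adipoq, 7 of Plin1 and 7 of Cidec, and in ARB replicate 3 there were 9 of Adipoq. WKY replicate 3 also held markers of lung, summing to 28.6 CPM over 7 genes against 0.394 to 2.57 CPM in the other 11 libraries, with Sftpc, a surfactant protein of the lung, at 7.73 CPM. Whether the lung and fat genes in that library share a source was not tested.

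The proportions of the genes differed between the rich libraries, as compared by the ratio of CPM in ARNI replicate 3 to CPM in ARB replicate 2. These ratios compare 1 library with 1 library, so their 95% intervals cover counting error only. The ratio was 0.321 (95% interval 0.298 to 0.347) for Adipoq, 0.162 (0.112 to 0.228) for Lep and 0.263 (0.203 to 0.339) for Retn. It was 0.655 (0.593 to 0.723) for Cidec and 1.45 (1.33 to 1.57) for Plin1. It was 11.7 (10.2 to 13.4) for Ucp1. The hormone genes were thus several-fold lower and Ucp1 more than 10-fold higher in ARNI replicate 3.

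Against Adipoq within each library, Ucp1 had 0.0813 reads per Adipoq read in ARB replicate 2, 2.95 in ARNI replicate 3 and 0.245 in WKY replicate 3. Plin1 had 0.358, 1.61 and 1.55 reads per Adipoq read in the same order. WKY replicate 3 was close to ARNI replicate 3 in its Plin1 proportion, but its interval (1.08 to 2.23, from 82 and 53 reads) was wide. Its Ucp1 proportion lay between those of the other libraries, with an interval of 0.123 to 0.456.

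Other fat genes from lists of the pathway were examined in the same way. The lipogenesis list held 21 genes of fatty acid and triglyceride synthesis. Of these, 16 in ARB replicate 2 and 11 in ARNI replicate 3 were above all other 10 libraries. The shares of all genes with reads were 12.3% and 13.0%. Thrsp, a regulator of lipogenesis, was at 391 CPM in ARB replicate 2, 177 CPM in ARNI replicate 3, 5.42 CPM in WKY replicate 3 and at most 0.946 CPM elsewhere. Scd, the desaturase that makes monounsaturated fatty acids, was at 1290 CPM in ARB replicate 2, 30.7 CPM in ARNI replicate 3 and at most 5.58 CPM elsewhere. The Scd ratio between those libraries, 0.0238 (95% interval 0.0217 to 0.0262), was far from that of Adipoq.

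Fasn and Acly, picked after their values were seen, are also enzymes of fatty acid synthesis. Fasn was at 945 CPM in ARB replicate 2, 90.9 CPM in ARNI replicate 3 and at most 37.0 CPM elsewhere. Acly was at 264 CPM, 76.7 CPM and at most 39.8 CPM. Like the hormones, both enzymes were higher in ARB replicate 2 than in ARNI replicate 3.

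Pck1, whose enzyme makes glycerol for triglyceride synthesis in fat, had the opposite order. It was at 371 CPM in ARNI replicate 3, 39.4 CPM in ARB replicate 2, 8.71 CPM in WKY replicate 3 and at most 0.473 CPM elsewhere, a ratio of 9.43 (95% interval 8.65 to 10.3). Slc36a2, an amino acid transporter of brown fat, was at 17.5, 8.46 and 0.444 CPM in those libraries. Adrb3, the adrenergic receptor of fat cells, picked after its values were seen, was at 17.7, 9.63 and 0.978 CPM. Clstn3, also picked so, was at 6.51 CPM in ARNI replicate 3 and 0.688 CPM in ARB replicate 2. These genes shared with Ucp1 a higher level in ARNI replicate 3. Genes of the brown fat list did not all share it. Cited1 of that list had the opposite order, with a ratio of 0.59 (95% interval 0.54 to 0.65).

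**Figure D2:**
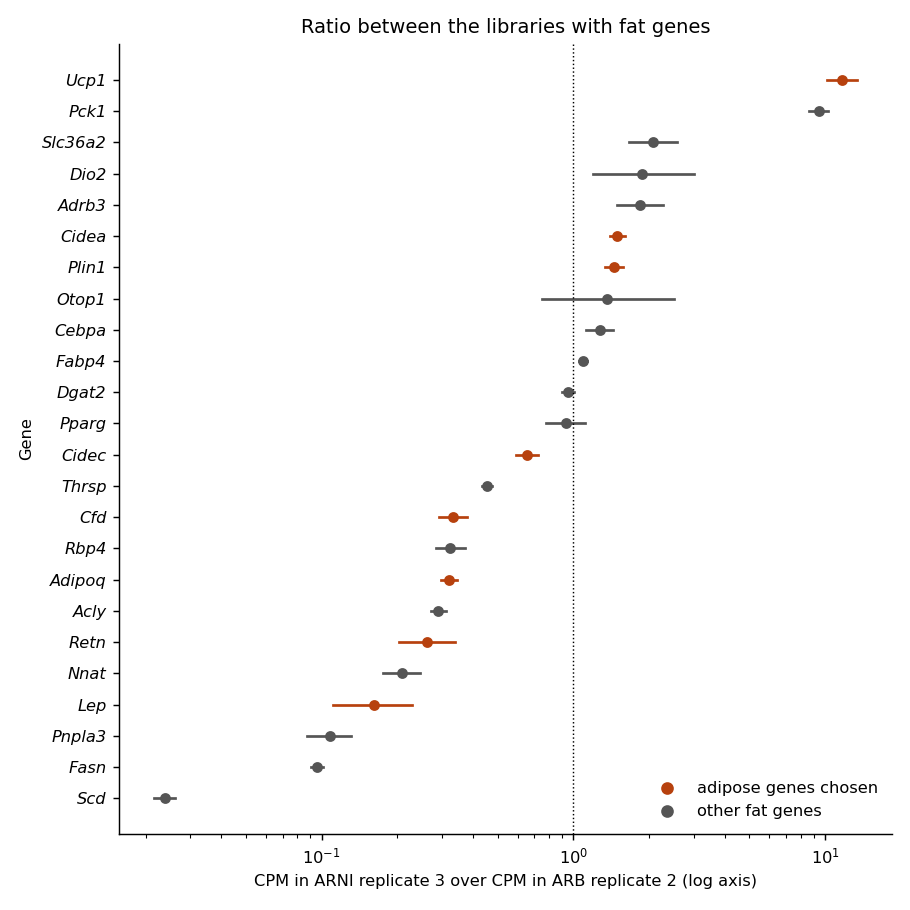
Points are the ratio of CPM in ARNI replicate 3 to CPM in ARB replicate 2 on a log axis, for the 8 adipose genes (orange) and 16 genes of the fat lists picked after their values were seen (grey), and lines are 95% counting intervals. Scd lies lowest at 0.0238 and Ucp1 highest at 11.7, and the dotted line marks 1.

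Of the secreted list, Rbp4, the retinol carrier, was at 64.4 CPM in ARB replicate 2, 20.9 CPM in ARNI replicate 3 and at most 1.03 CPM elsewhere. Nnat, the gene of neuronatin, was at 55.9 and 11.6 CPM, with 17.8 CPM in WKY replicate 3. Angptl4, an inhibitor of lipoprotein lipase, was at 19.3 CPM in ARNI replicate 3 and 2.89 CPM in ARB replicate 2, which was within the 0.331 to 7.31 CPM of the other 10 libraries. In all, 2 of 13 secreted genes with reads in ARB replicate 2 and 3 in ARNI replicate 3 were above every other library, beside 12.3% and 13.0% of all genes with reads.

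Of the regulators, Cebpa, a transcription factor of fat cell differentiation, was at 31.4 and 40.0 CPM in ARB replicate 2 and ARNI replicate 3 and at most 8.26 CPM elsewhere. Srebf1, which drives lipogenic genes, was at 87.7 and 57.4 CPM against at most 33.7 CPM elsewhere. Mlxipl, a carbohydrate-responsive factor, was at 59.9 and 33.9 CPM against at most 33.4 CPM. In all, 6 of 13 regulators were above every other library in both, beside 3.84% of all genes with reads. The ratio of ARNI replicate 3 to ARB replicate 2 was 1.27 (95% interval 1.13 to 1.44) for Cebpa, 0.655 (0.600 to 0.715) for Srebf1 and 0.565 (0.505 to 0.632) for Mlxipl, so the regulators differed in which library was higher.

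Of the lipolysis list, 6 of 12 genes in ARB replicate 2 and 4 in ARNI replicate 3 were above all other 10 libraries. The shares of all genes with reads were 12.3% and 13.0%. Pnpla3, a lipid droplet hydrolase, was at 70.1 CPM in ARB replicate 2 and 7.51 CPM in ARNI replicate 3, and the latter lay within the other libraries' 0.737 to 10.8 CPM. Hcar2, a receptor that restrains lipolysis, was at 0.619 and 0.407 CPM against at most 0.267 CPM. These were 9 reads in ARB replicate 2 and 6 in ARNI replicate 3, near the floor of 3 reads. Aqp7, the glycerol channel, was highest in ARNI replicate 2, at 177 CPM, and was at 16.0 and 21.4 CPM in the libraries rich in fat genes. Aqp7 thus followed another pattern than the fat genes.

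Of the droplet list, 2 of 14 genes in ARB replicate 2 and 3 in ARNI replicate 3 were above the others, again beside 12.3% and 13.0% of all genes. Mrap, an accessory protein of melanocortin receptors, was at 11.2 CPM in ARB replicate 2 and 1.02 CPM in ARNI replicate 3, against at most 3.73 CPM. Plin5, a droplet protein that heart muscle also uses, was highest in ARNI replicate 2 (78.1 CPM), and Cideb was highest in WKY replicate 3 (0.979 CPM). Of the uptake list, 1 and 2 of 10 genes were above the others, beside the same shares, Slc36a2 being in both libraries. Cd36, the fatty acid transporter, was highest in WKY replicate 3 (1584 CPM), and Gpihbp1, which holds lipoprotein lipase on capillaries, in ARB replicate 3 (89.9 CPM).

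Of 30 brown fat genes with reads, 8 in each library, 6 of them in both, were above all other 10. Otop1, a proton channel, was at 1.44 and 1.97 CPM against at most 0.158 CPM, and Slc27a2, a fatty acid transport protein, was at 7.12 CPM in ARNI replicate 3 but 0.206 CPM in ARB replicate 2, with up to 2.13 CPM in WKY replicate 3. Zic1 and Elovl3, known from brown fat, had at most 0.0870 CPM in any library. Cox7a1, Cox8b and Fabp3, which heart muscle also uses, were highest outside these libraries, with Fabp3 at 3936 CPM in ARNI replicate 2. Beside the 12.3%, 13.0% and 3.84% of all genes with reads, the counts of this list are given as a description.

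Of the adipokine receptors, 0 of 4 genes in ARB replicate 2 and 1 in ARNI replicate 3 were above the others. Lepr, the leptin receptor, was at 6.48 and 4.42 CPM within the other libraries' 0.952 to 7.47 CPM, Cdh13, which binds adiponectin, was at 165 and 197 CPM against at most 174 CPM, and Adipor2 was at 91.0 and 74.9 CPM against at most 91.5 CPM. Of the 10 preadipocyte genes, 0 and 2 were above the others, and Cd55, Dlk1 and Icam1 lay within the range of the other libraries. Of 67 PPAR signalling genes with reads, 15 and 17 were above the others and 10 were so in both. That list includes Adipoq, Plin1 and Ucp1, which were chosen on this pattern, so these counts are a description. For all genes with reads the shares were 12.3% in ARB replicate 2, 13.0% in ARNI replicate 3 and 3.84% in both.

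**Figure D3:**
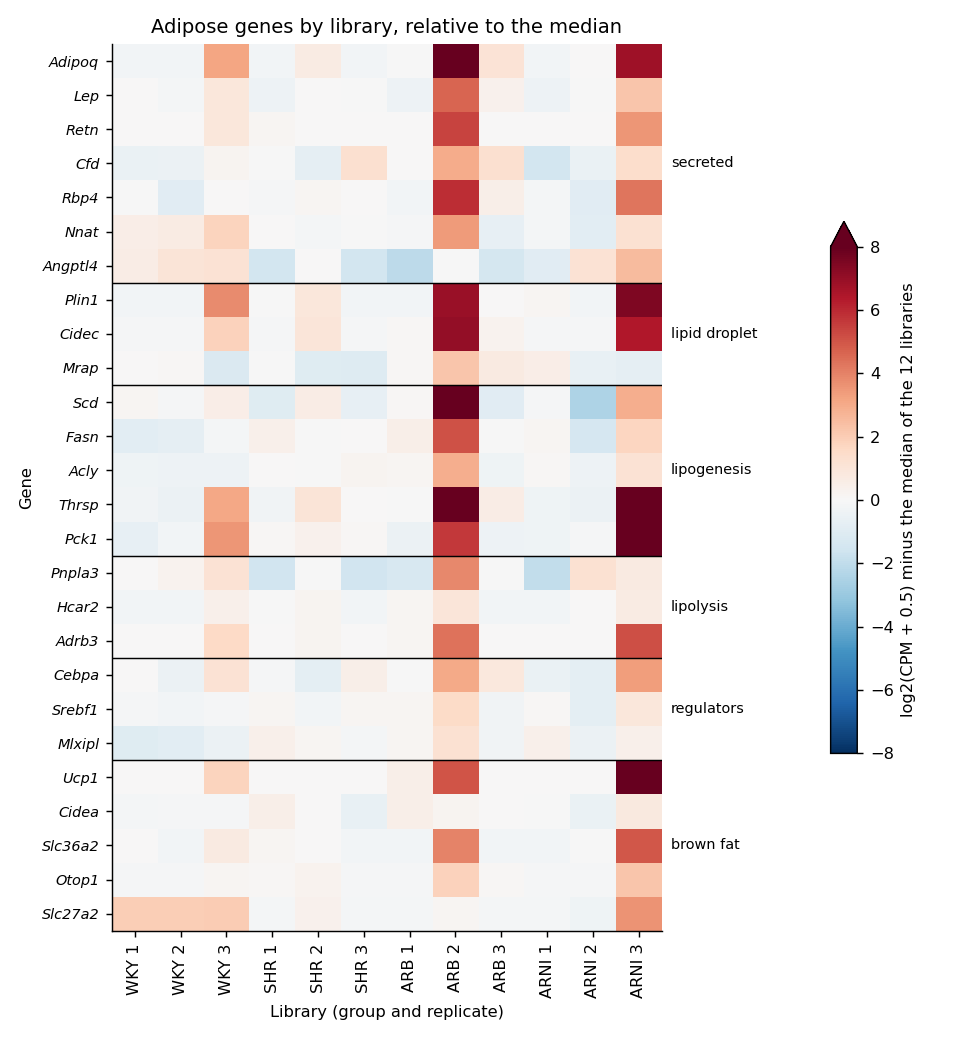
Rows are fat genes grouped by role, columns the 12 libraries, and color the log2(CPM + 0.5) of a library minus the median of the 12 libraries, red for higher, with values over 8 shown as 8. ARB replicate 2 and ARNI replicate 3 are red for most genes, WKY replicate 3 is paler, and Cidea is near 0 throughout.

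Summed markers of neurons and glia were higher in both of these libraries than elsewhere, and those of smooth muscle in ARNI replicate 3 only. In ARNI replicate 3, the sum of 10 neuron and glia markers was 284 CPM, in ARB replicate 2 it was 139 CPM, and in the other 10 libraries it was 35.8 to 111 CPM. All but 1 of the neuron markers in ARNI replicate 3 (9 of 10) were above all other 10 libraries. This was so for 13.0% of all genes with reads. Among them, Chrna3, a receptor subunit of autonomic ganglia, was at 7.94 CPM and had 0 to 0.0632 CPM in the other 10, and Dbh, which makes noradrenaline, was at 16.5 CPM against 0.870 to 2.47 CPM. The sum of 5 smooth muscle markers was 847 CPM in ARNI replicate 3, 358 CPM in ARB replicate 2 and 275 to 398 CPM in the others. Mesothelial markers summed to 434 and 450 CPM, within 70.7 to 680 CPM. Sums for endothelium, fibroblasts, macrophages, lymphocytes, skeletal muscle, lung and red cells also lay within the range of the other libraries. The part of these tissues in the fat gene levels was not tested.

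The labelled tissue was checked by its markers. The sum of 8 atrial markers was 27900 to 77560 CPM in 8 libraries, with 57760 CPM in ARB replicate 2 and 35620 CPM in ARNI replicate 3, but 105 to 331 CPM in the WKY libraries and 124 CPM in ARNI replicate 2. The sum of 6 ventricular markers was 43270 to 43590 CPM in the WKY libraries, 18560 CPM in ARNI replicate 2, 9833 CPM in SHR replicate 2 and 10620 CPM in ARB replicate 3, and 371 to 935 CPM in the rest. The WKY libraries and ARNI replicate 2 therefore went against their label of atrium, and the strain and the part of the heart cannot be told apart in comparisons with the WKY group. The summed fat genes overlapped between these groups, at 5.54, 5.91 and 24.0 CPM (WKY) and 8.03, 6.31 and 20.5 CPM (SHR). Ndufa10l1, whose reads may be shared with a near-identical gene, was absent from all 3 libraries named WKY and at 54.0 to 119 CPM in the other 9.

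**Figure D4:**
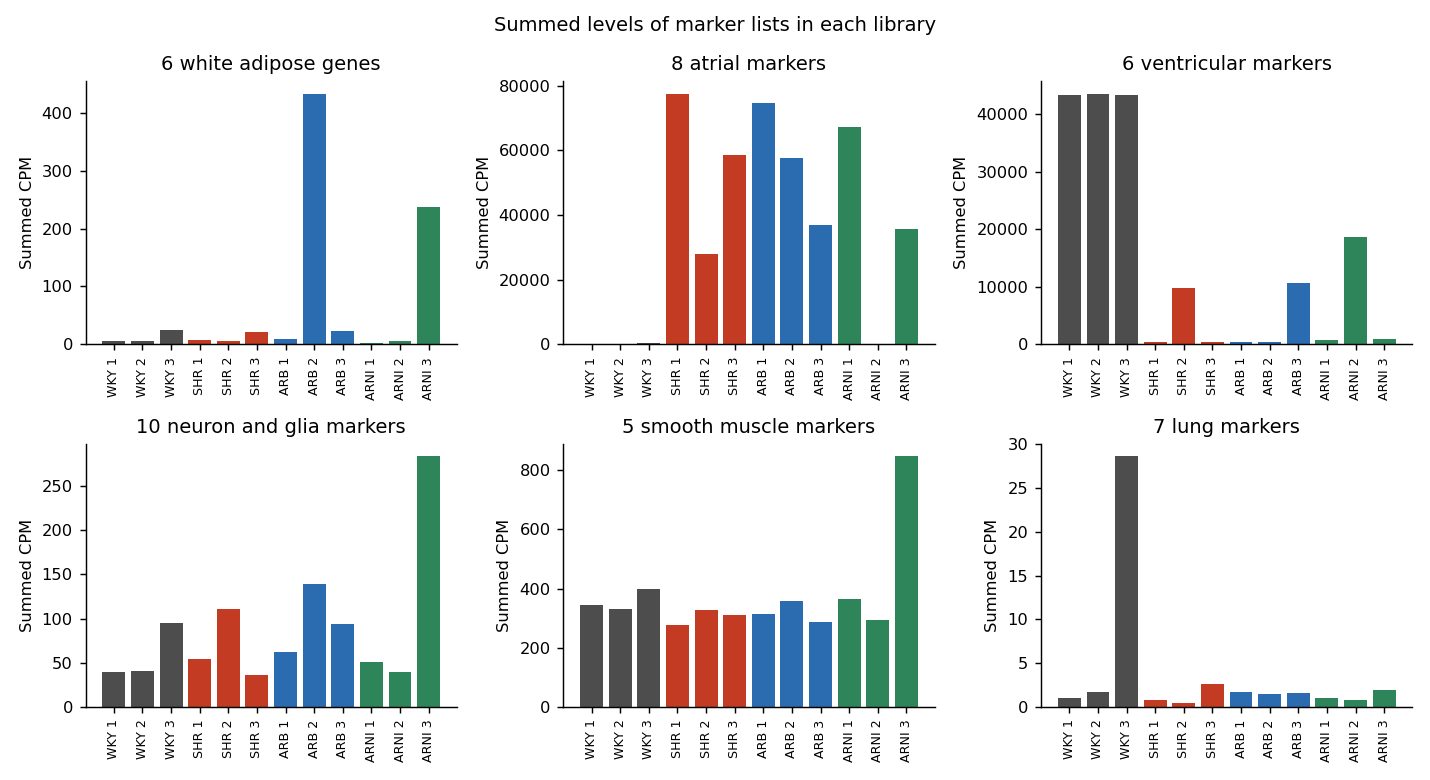
Bars show the summed CPM of a marker list in each of the 12 libraries, colored by group, on axes that start at 0. The fat sum peaks in ARB replicate 2 and ARNI replicate 3. The neuron and smooth muscle sums peak in ARNI replicate 3, and the lung sum peaks in WKY replicate 3. The atrial sum separates the WKY libraries and ARNI replicate 2 from the rest. The ventricular sum is highest in the WKY libraries, followed by ARNI replicate 2, ARB replicate 3 and SHR replicate 2.

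The groups were compared to see how far fat genes entered the comparisons of strain and treatment. In the SHR against the WKY group, 1226 of 13794 genes (8.89%) were differentially expressed genes (DEGs), 764 higher and 462 lower. A DEG passed an adjusted p of 0.05 by edgeR's quasi-likelihood test and was at least 1 log2 unit away from 0. Scaled by total counts only, 985 were higher and 363 lower, and the median of all genes moved from 0.01 to 0.15. Of the 8 adipose genes, 2 had enough reads to be tested and 0 were DEGs, with 0 at an unadjusted p under 0.05. DESeq2 called 0 and gave a p to 7 of the 8, with 0 under 0.05. The log2 fold change of Cfd was 0.51 (standard error 0.514, adjusted p = 0.493, edgeR) and that of Cidea was 0.04 (standard error 0.272, adjusted p = 0.916, edgeR). Neither difference exceeded the spread between libraries, and Adipoq, Lep, Retn, Plin1, Cidec and Ucp1 were too rare for the test.

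Other genes of the fat lists did differ between these groups. Of 52 PPAR signalling genes tested, 3 rose and 7 fell in the SHR group, with a median log2 fold change of -0.65 beside 0.01 for all genes. Of all genes tested, 5.54% were higher and 3.35% were lower DEGs. DESeq2 called 3 of 67 PPAR signalling genes higher and 12 lower, beside 886 higher and 709 lower of 18705 genes. Cd36 fell by 3.89 on the log2 scale, Slc27a2 fell by 3.87, Olr1, a receptor of oxidized lipoprotein, rose by 2.54, Angptl4 fell by 2.17 and Nr1h3, the liver X receptor alpha, rose by 1.53 (adjusted p = 0.006, 0.0086, 0.0119, 0.047 and 0.00405, edgeR). Leaving out a WKY library lowered the edgeR counts of the list. They were 2 higher and 2 lower without WKY replicate 1, and 2 and 1 without WKY replicate 2 or without WKY replicate 3. The DEGs among all genes fell too, from 1226 to 393, 353 and 348 without WKY replicates 1, 2 and 3. The part of the fat traces was not tested. The counts were 3 and 2 without SHR replicate 1, 3 and 3 without SHR replicate 3, and 4 and 24 without SHR replicate 2, the SHR library with ventricular markers. The atrial and ventricular markers moved with these groups as given above, and their part was not tested.

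Of 20 brown fat genes tested, 1 rose and 3 fell. For this list and those below, the shares of all genes tested were 5.54% higher and 3.35% lower. The log2 fold change was 3.63 for Cited1 and -3.87 for Slc27a2 (adjusted p = 0.00332 and 0.0086, edgeR). It was -2.50 for Dio2, the deiodinase that activates thyroid hormone, and -1.04 for Ppara, the receptor that drives fatty acid oxidation (adjusted p = 0.00703 and 0.0429, edgeR). Of 12 secreted genes tested, Cfb rose by 1.47 and Angptl4, Apln, Nnat and Vegfa fell, Apln by 1.70, Nnat by 1.38 and Vegfa by 1.21. The 4 lower calls of that list became 0 without WKY replicate 1, 2 or 3 or without SHR replicate 1, 2 without SHR replicate 3 and 7 without SHR replicate 2. Of the regulators, Zfp423 rose by 1.60, Nr1h3 rose as above and Pparg, the master regulator of fat cells, fell by 1.16. In the other lists, Scd2 (1.20) and Sort1 (1.16) rose and Plin4 fell by 1.45. By edgeR, 0 of 9 lipolysis, 0 of 4 receptor and 0 of 9 preadipocyte genes were DEGs, beside 8.89% of all genes tested. DESeq2 called 3 of 12 lipolysis genes lower, and 1 of 10 preadipocyte genes higher and 1 lower. It called 1 of 29 brown fat genes higher and 5 lower, beside 886 higher and 709 lower of 18705 genes. By edgeR without SHR replicate 2, 4 of 9 lipolysis genes were lower, and 2 preadipocyte genes were higher and 1 lower. The lower edgeR calls of the brown fat list numbered 1 without WKY replicate 2 or 3, 2 without WKY replicate 1 or SHR replicate 1 and 8 without SHR replicate 2.

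In the ARB against the SHR group, 0 of 13979 genes (0.0%) were DEGs by edgeR, 225 had an unadjusted p under 0.05, and DESeq2 called 3. Of the 8 adipose genes, 2 were tested and 0 were DEGs, 0 of them at an unadjusted p under 0.05, and DESeq2 gave a p to 2 of the 8, with 1 (Cfd) under 0.05 before adjustment, and called 0. Without the filter on low counts, 6 of the 8 had an unadjusted p under 0.05 by edgeR and 0 passed after adjustment. These libraries include ARB replicate 2, which was used in choosing the genes, so these values are a description. The log2 fold change was 1.57 for Cfd and 0.22 for Cidea, and without ARB replicate 2 that of Cfd was 0.53. Adipoq averaged 64.3 ± 111 CPM (SD, n = 3) in the ARB group and 0.131 ± 0.228 CPM in the SHR group, so its spread in the ARB group exceeded its mean, and the groups overlapped.

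The lipogenesis list had a median log2 fold change of 0.96 in the ARB group, with 15 of 16 genes tested higher, beside -0.01 for all genes. Without ARB replicate 2 the median was 0.13, with 11 of 16 higher, whereas without ARB replicate 1 it was 1.32 and without ARB replicate 3 it was 1.21. The lipogenesis difference of the ARB group was thus largest with ARB replicate 2 in it, and 0 genes of the list were DEGs.

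In the ARNI against the SHR group, 0 of 13955 genes (0.0%) were DEGs by edgeR, 227 had an unadjusted p under 0.05, and DESeq2 called 7. Of the 8 adipose genes, 2 were tested and 0 were DEGs, 0 of them at an unadjusted p under 0.05 by edgeR. DESeq2 gave a p to 3 of the 8, with 0 under 0.05, and without the filter on low counts 2 of the 8 had an unadjusted p under 0.05 by edgeR and 0 passed after adjustment. The log2 fold change was -0.05 for Cfd and 0.20 for Cidea, and without ARNI replicate 3 these were -1.29 and -0.17. Ucp1 averaged 60.7 ± 105 CPM (SD, n = 3) in the ARNI group and had no read in the SHR group, but 2 of the 3 ARNI libraries had no read either.

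The lipogenesis list had a median log2 fold change of 0.44 in the ARNI group (15 of 16 genes higher) and 0.15 without ARNI replicate 3 (9 of 16 higher). The PPAR signalling list behaved differently, with a median of 0.31 (41 of 51 higher), which was 0.31 without ARNI replicate 3 but -0.04 without ARNI replicate 2, the library that lacked atrial markers. The brown fat list had a median of 0.38, which was 0.45 without ARNI replicate 3 and -0.02 without ARNI replicate 2. Leaving out ARNI replicate 3 thus lowered the lipogenesis median, and leaving out ARNI replicate 2 lowered the medians of the PPAR signalling and brown fat lists. Which trait of these libraries the medians followed was not tested. Both treated groups were compared with the same SHR libraries.

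**Figure D5:**
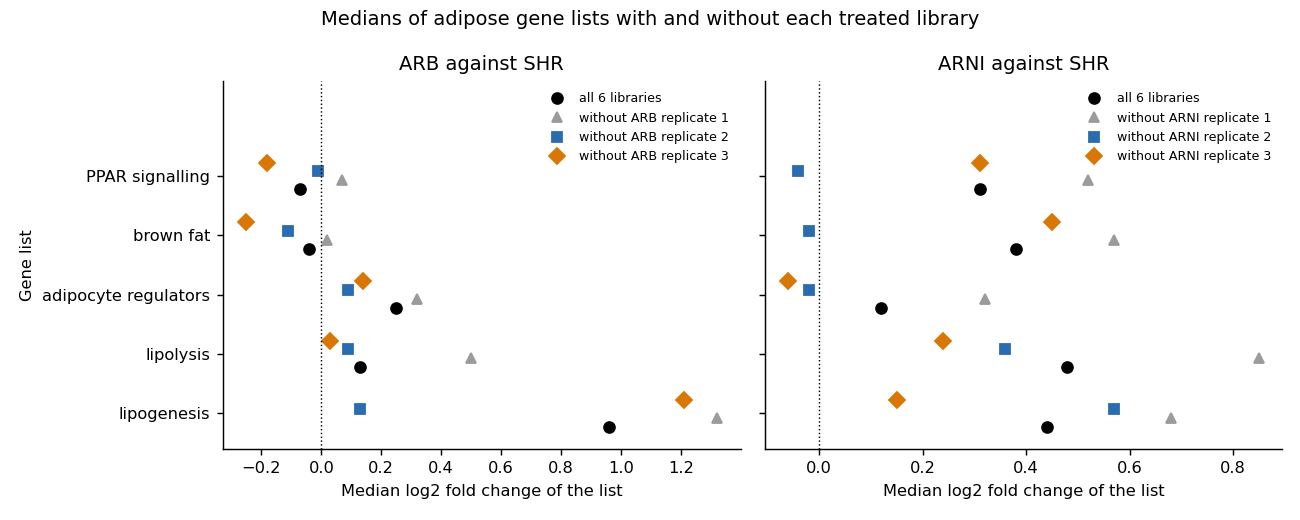
Points are the median log2 fold change of a gene list, for all 6 libraries (black) and without each treated library in turn, in the ARB group (left) and the ARNI group (right) against the SHR group. The lipogenesis median of the ARB group falls from 0.96 to 0.13 without ARB replicate 2, and the PPAR signalling median of the ARNI group falls from 0.31 to -0.04 without ARNI replicate 2.

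The genes whose levels most resembled the 6 general fat genes across the 12 libraries were sought among 15776 genes by Pearson's r of log2(CPM + 0.5). The closest was Thrsp (r = 0.988), followed by Lgals12, Angptl8, Rbp4, Ankef1, Mpo, Gys2, Prr32, Rhbg and Alb (r = 0.957). Lgals12 and Angptl8 are known from fat cells, Mpo is the peroxidase of neutrophils and Alb the serum albumin of liver. Mpo was at 5.92 CPM in ARB replicate 2, 6.11 CPM in ARNI replicate 3, 0.267 CPM in WKY replicate 3 and at most 0.0788 CPM in the other 9. These correlations rest on the same libraries that define the pattern, so they are a description without a p.

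For Ucp1 and Cidea together, the 10 closest genes included Nrsn1 (r = 0.951), Lmod1, MGC109340, Chrna5, Cnn1, Shisa3, Map2, Uchl1 and Alk (r = 0.900). Chrna5 encodes a nicotinic receptor subunit, and Lmod1 and Cnn1 belong to smooth muscle. For Ucp1 alone, added after the data were seen, they included Acsm5 (r = 0.984), Slc36a2, Adrb3, Pck1, Chrnb4, Prkar2b, Ankef1, Shisa3 and Apod (r = 0.963). Chrnb4, a receptor subunit of autonomic ganglia, was at 2.31 CPM in ARNI replicate 3 and 0.825 CPM in ARB replicate 2. Fat genes and this receptor subunit thus stood side by side among the genes closest to Ucp1.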

How the data were processed

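RNA-seq of 12 left atrial samples was used. Reads were cleaned with SOAPnuke and mapped with HISAT2 (2.0.4) and Bowtie2 (2.2.5), and the submitters' processing notes name the build Rnor_6.0. The authors deposited RSEM's expected counts of each gene, not normalized. RSEM shares reads between genes, and 23.6% of the values were not whole. The annotation is not given in the sources used here. A further 2 deposited columns, which hold the authors' log2 fold changes and p-values between SHR and WKY samples, were not used.

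Expected counts were rounded to whole numbers. CPM is the count over the library total, which was 11252361 to 15823525. Exact binomial intervals (95%) and the floor of 3 reads cover only the error of counting, as PCR copies were not told apart. Levels of different genes were not compared, because transcript lengths were not used.

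Groups were compared with edgeR 4.0.16 (quasi-likelihood, TMM, filterByExpr, R 4.3.3) on the 6 libraries of a pair, with Benjamini-Hochberg adjustment. Genes low in all but 1 library are removed by that filter, which took out 6 of the 8 adipose genes. DESeq2 1.42.0, other scalings, no filter, 1 fit of all libraries, a replicate block, leaving out each library and the strain words of the titles were alternatives. The edgeR fit was tested on simulated counts with the means and depths of the SHR and WKY libraries. The genes changed there were not rare and no library was extreme. That test therefore does not cover genes high in a single library. The adipose genes and the lists were chosen with earlier results of these data known. Named genes were the 8 adipose genes, the DEGs of each list (at most 5), the 3 genes per list with the highest ratio of the top library to the median, and the 10 most alike, and genes outside this rule are said to be picked after their values were seen. That also holds for Fabp3, Zic1, Elovl3, Cox7a1, Cox8b and the marker genes named. Of the most alike genes, some are not reported here.

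Deviations from the group means over genes were correlated between samples of the ARNI and SHR groups with the same replicate number. The r was 0.542, 0.529 and 0.196 for numbers 1, 2 and 3. ARB replicate 3 and SHR replicate 2, of different numbers, had r = 0.562. These and ARNI replicate 2 held the most ventricular markers outside the WKY group. The labels state no pairing, and whether animals were paired was not tested. In the ARNI against the SHR group, 0 adipose genes and 0 genes in all were DEGs with a replicate block. Python 3.11.15, pandas 2.3.3, numpy 2.4.6, scipy 1.17.1 and matplotlib 3.10.9 were used.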

Additional observations from a re-analysis of the deposited data

How the results depend on the processing

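In all 3 comparisons, 0 adipose genes were DEGs under each of the 39 alternatives run, the replicate block included. Most of these fits tested only 2 or 3 of the 8, and the fit of all 12 libraries tested 6. With groups set by the library names, edgeR called 0 genes of any kind in the ARB and ARNI comparisons. The absence of calls there is therefore not particular to the adipose genes. The log2 fold changes of Cfd and Cidea, none past the threshold, changed sign in some. In the SHR against the WKY group, Cidea was at -0.03 with the replicate block, and with groups set by the strain words of the titles Cfd was at -0.51 and Cidea at -0.04, since the groups are exchanged. In the ARNI comparison Cfd was at 0.47 with those words. Leaving out each library in turn, Cfd ranged from -0.23 to 0.85 and Cidea from -0.23 to 0.31 in the SHR against the WKY group, Cidea from -0.05 to 0.49 in the ARB comparison, and Cfd from -1.29 to 0.70 and Cidea from -0.17 to 0.46 in the ARNI comparison. The DEGs of the SHR against the WKY group numbered 348 (without WKY replicate 3), 353 (without WKY replicate 2), 393 (without WKY replicate 1), 577 (without SHR replicate 1), 2205 (without SHR replicate 2), 681 with the replicate block and 579 when all 12 libraries were fitted together. With the strain words of the titles, the ARB and ARNI groups, compared with the libraries named WKY, had 1526 and 34 DEGs. In the other pairs of groups, samples with the same replicate number had r from -0.290 to 0.433. By Spearman's correlation, 1 of the 10 genes most like the general fat genes, 3 of those most like Ucp1 and Cidea, and 2 of those most like Ucp1 were shared. Without the filter on low counts, all 8 adipose genes entered the fits and 0 were DEGs, though 6 in the ARB and 2 in the ARNI comparison had an unadjusted p under 0.05 by edgeR. DESeq2 gave no p to 6 of the 8 in the ARB comparison and to 5 in the ARNI comparison, so those could not be called. A count of 0 allows up to 3 reads.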
